A study of Homo sapiens with 35 samples.

Results

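The SR proteins are a family of RNA-binding splicing factors, and 10 of their genes were followed here by transcript biotype in myeloma cells that recovered from proteasome inhibition. The members were SRSF1, SRSF2, SRSF3, SRSF4, SRSF5, SRSF6, SRSF7, SRSF9, SRSF10 and SRSF11, and every table entry with one of these symbols was taken. In the deposited table the counts of a gene are kept apart by biotype, the class its transcripts have in the annotation, and the 10 symbols held 32 of 84647 such rows (10 of 56816 symbols). These were 10 protein_coding rows and 22 non-coding rows, of which 10 were nonsense_mediated_decay, 8 retained_intron and 4 processed_transcript rows. Non-coding is used here only for rows outside the protein_coding biotype, since nonsense_mediated_decay transcripts do have an annotated reading frame. All 32 rows were measured. All 10 protein_coding rows and 18 of the 22 non-coding rows averaged at least 10 counts over the libraries, and the other 4 are given by counts.

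RNA was sequenced from RPMI-8226, an established multiple myeloma cell line, at day 0 and then 1, 2, 4, 6, 8 and 10 days past a 1 h pulse of carfilzomib, an irreversible inhibitor of the proteasome. Each day had 5 libraries, 35 in all, and the labels name no introduced allele. The labels name carfilzomib (750 nM) for all 7 groups, while the study's methods place the day 0 collection ahead of the drug, so that day 0 is the untreated group. The study's methods describe the libraries as subcultures split from a single expanded culture, while a legend calls them independent experiments. P-values measure the spread between these libraries, which may be technical in part. These are bulk libraries, in which fewer cells with a transcript and less of it per cell cannot be told apart.

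SR proteins carry RNA recognition motifs and a domain rich in arginine and serine, bind enhancers in exons and help the spliceosome to choose splice sites. Most of them also control their own amount. Many SR genes hold a cassette exon with an early stop codon, often called a poison exon. These exons lie in stretches that are highly conserved among mammals. An mRNA that includes such an exon is a target of nonsense-mediated decay (NMD), the pathway that degrades mRNAs with a premature stop. Other SR transcripts keep an intron and can stay in the nucleus. In the annotation, an NMD biotype marks a coding transcript with a stop far ahead of its last exon junction, a retained-intron biotype a transcript with intronic sequence, and a processed transcript one without a defined reading frame. Phosphorylation of the arginine and serine domain by the SRPK and CLK kinases sets where SR proteins are and how active they are.

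Premature stop codons from NMD transcripts of 4 of the genes are shown first, because the ratio of NMD rows to protein_coding rows is what much of the comparison turns on. In GENCODE release 44 of GRCh38, SRSF3-203 includes a cassette exon of 456 bases within intron 3, and SRSF6-202 one of 268 bases within intron 2. SRSF7-204 holds one of 449 bases within intron 3 and SRSF4-208 one of 175 bases within intron 1. Introns are counted along the reference transcript of each gene. Each line gives the last coding bases of the cassette, 5′ to 3′, with the premature stop codon in capitals.
SRSF3-203 (chr6:36599825-36599854, plus strand): accatcatgtctcttctcaccaccctcTGA
SRSF6-202 (chr20:43459275-43459304, plus strand): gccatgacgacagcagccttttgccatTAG
SRSF7-204 (chr2:38749319-38749346, minus strand): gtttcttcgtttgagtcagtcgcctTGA
SRSF4-208 (chr1:29166009-29166038, minus strand): ggagaggttcggttcttacaaggaaaaTGA
TGA closed the frame in SRSF3, SRSF7 and SRSF4, and TAG in SRSF6. An NMD label does not stand for such cassettes alone. In release 44, the NMD transcripts SRSF7-206 and SRSF7-208 keep intron 3 in place of a cassette exon. No NMD transcript of SRSF1 has its stop in a cassette exon, and SRSF1-204 keeps intron 3. A change of an NMD row can therefore not be read as cassette inclusion alone. The counts rest on release 28, whose transcript labels were not checked.

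SRSF5 retained_intron had the largest called ratio rise among the SR pairs, and boundaries of introns kept by some of its transcripts are shown for that reason. In GENCODE release 44, 8 SRSF5 transcripts have this biotype. Of these, 2 keep intron 4 (285 bases) and 2 keep intron 5 (1215 bases), while 1 keeps intron 2 and 1 keeps intron 3. All 4 introns lie between coding exons on chromosome 14, plus strand. Capitals mark the first and the last 2 bases of the intron.
intron 4, 5′ end (chr14:69768887-69768916): atgatagacgGTatgtgaagggtggatggc
intron 4, 3′ end (chr14:69769162-69769191): atacgaattttcttcctcAGaaatgctcca
intron 5, 5′ end (chr14:69769242-69769271): cagctggcagGTttgttgaaatacagtttt
intron 5, 3′ end (chr14:69770447-69770476): cacaattatcttgtgttaAGgatctcaaag
Both introns start with GT and end with AG, the usual ends of introns removed by the major spliceosome. The biotype label does not fix a single event. Of the retained_intron transcripts, SRSF3-201 also starts an exon at the first base of the SRSF3 cassette, and SRSF2-206 and SRSF2-210 hold a cassette within intron 2. SRSF4-207 includes the 175-base cassette whose stop is printed above. These labels are from release 44, while the counts rest on release 28, and the labels differ in places. SRSF11 has 2 retained_intron transcripts in release 44 but no retained_intron row in the counts. Rows built on the structures named here could count reads of the cassettes too. Which transcripts each counted row held in release 28 was not checked.

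Levels are given as CPM, counts scaled to 1000000 per library with a TMM factor. The libraries held 6519392 to 10962890 counts (median 7643975), and TMM factors over all rows lay between 0.936 and 1.09. All 8 plasma cell markers were expressed in every library, among them SDC1 (166 to 325 CPM) and IRF4 (250.2 to 459 CPM). Of 8 markers of other cells, CD3D was at 0 in 32 libraries, LYZ in 28 and COL1A2 in all 35, while MS4A1 (3.34 to 11.2 CPM), PAX5 (0.751 to 3.87 CPM) and CD3E (0.363 to 3.86 CPM) were detected in every library. By edgeR at an adjusted p of at most 0.05, 2 of the 8 plasma cell markers were higher and 5 lower on day 1. Among all protein_coding rows, 46.9% were called in either direction that day, and 74.6% of those with at least 100 counts on average. The summed level of the plasma cell markers was 1359 to 1565 CPM on day 0, 1076 to 1300.2 on day 1 and 1675 to 1774 on day 10. Of 7 tested markers of other cells, 0 were higher and 3 lower on day 1, with sums of 9.01 to 13.8 CPM on day 0, 6.98 to 9.39 on day 1 and 11.8 to 15.3 on day 10. The part of either list in the results was not tested. No 2 libraries of a day agreed within sampling noise. The chi-square per degree of freedom between the counts of 2 libraries of a day ran from 3.63 to 15.5. Pairs with day 1 replicate 3 had 12.8 to 15.5, and the other day 1 pairs had 3.63 to 6.03. The highest value on another day was 9.71. The mix of biotypes over the whole table moved with the days. Retained_intron rows held 7.15% ± 0.574 of all counts on day 0 (SD, n = 5), 5.05% ± 0.462 on day 1 and 6.43% ± 0.481 on day 10, and NMD rows 2.77% to 2.85% on the 7 days. With TMM factors over all rows, the median change of the 7937 protein_coding rows with at least 100 counts on average was 0.30 on day 1, 0.24 on day 2, 0.14 on day 4 and 0.07 to 0.12 later (log2, against day 0). With factors from protein_coding rows alone it was 0.09 or less. Protein_coding changes below include this shift unless given relative to it, and ratios between biotypes of a symbol do not depend on it.

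The protein_coding rows of the SR genes split into several courses after the pulse. On day 1, 7 of the 10 rose and 2 fell, against a background of 74.6% of abundant protein_coding rows called in either direction (edgeR's quasi-likelihood test, Benjamini-Hochberg adjusted p of at most 0.05). On day 2 the counts were again 7 and 2 (68.2% in the background). By day 4 there were 4 higher and 2 lower (55.4%), on day 6 1 higher and 4 lower (45.8%), on day 8 2 higher and 2 lower (51%) and on day 10 3 higher and 2 lower (44%). The SR shares, 9 of 10 rows on days 1 and 2 and 4 to 6 of 10 later, lay near these backgrounds, and no difference from them was tested. Relative to the day 1 median of abundant rows, the changes were 0.89 for SRSF7, 0.79 for SRSF3, 0.71 for SRSF1, 0.63 for SRSF9, 0.28 for SRSF10, 0.14 for SRSF4 and 0.10 for SRSF2. They were -0.26 for SRSF11, -1.24 for SRSF6 and -1.68 for SRSF5. The median over the 10 rows was 0.51 on day 1 and 0.72 on day 2, and between -0.06 and 0.18 from day 4 on. Changes of more than 2-fold were 3 rises and 1 fall on day 1 and 1 rise and 2 falls on day 2, and from day 4 only SRSF5 and SRSF6 stayed past 2-fold. The share of all protein_coding rows past 2-fold was not computed, so these counts only describe the SR genes.

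**Figure D1:**
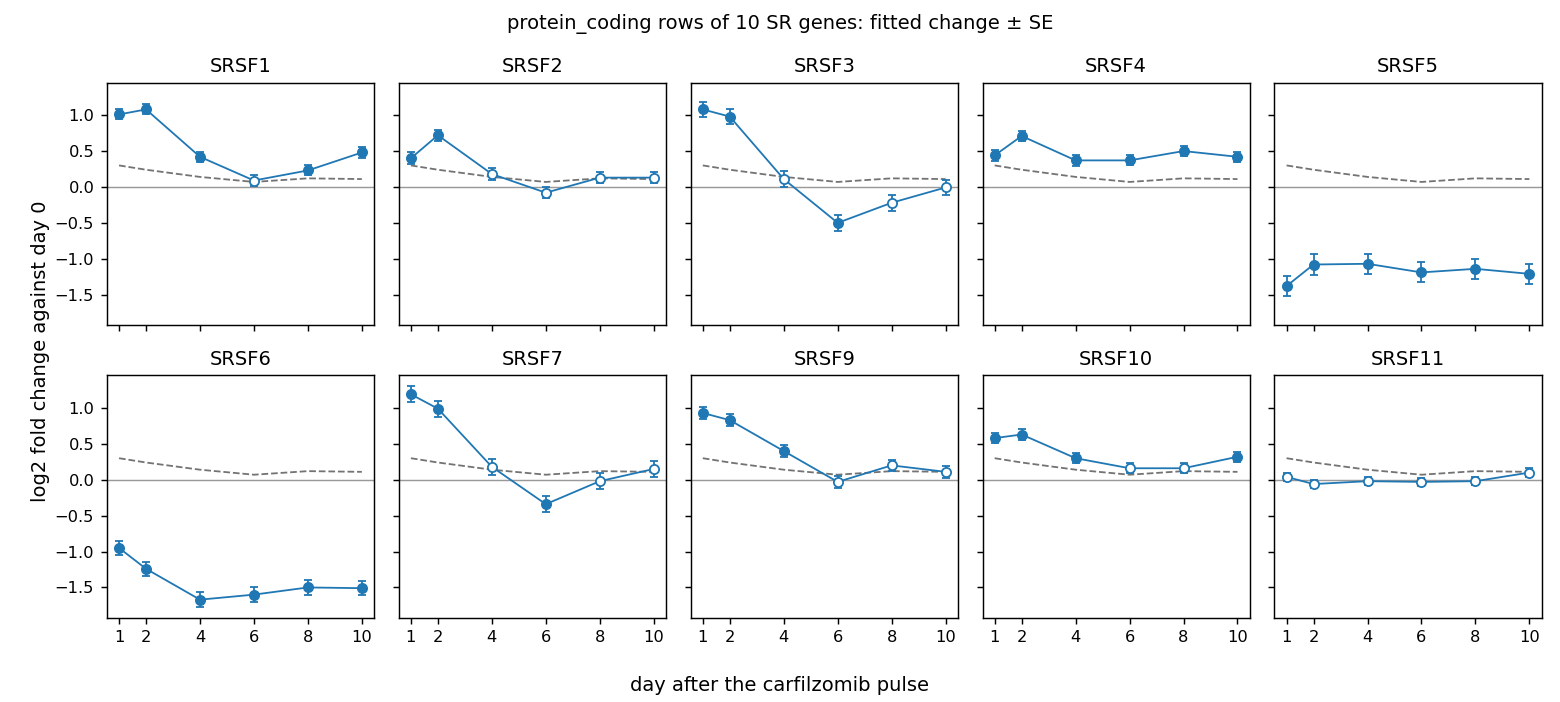
Fitted log2 fold change of the protein_coding row of each SR gene against day 0 (y axis) by day after the pulse (x axis), with bars of 1 SE. Filled points were called at an adjusted p of at most 0.05, open points were not, and the dashed line is the median of all abundant protein_coding rows. SRSF5 and SRSF6 lie below -0.9 on all 6 days, while SRSF1, SRSF3, SRSF7 and SRSF9 peak on day 1 or 2.

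SRSF1, SRSF3, SRSF7 and SRSF9 rose early. SRSF1 (chr17:58000919-58007346, minus strand), a regulator of constitutive and alternative splicing that also acts in NMD and can transform cells, had protein_coding values of 126, 151, 154, 151 and 162 CPM on day 0 and 270.5, 304, 319, 293 and 312 CPM on day 1. The lowest day 1 library was above the highest of day 0, and the change was 1.01 ± 0.07 (log2, SE, adjusted p = 2.6e-15). It was 1.08 ± 0.07 on day 2 and 0.42 ± 0.07 on day 4, was not called on day 6 (0.09 ± 0.07, adjusted p = 0.518), and was called again on day 10 (0.48 ± 0.07, adjusted p = 1.9e-06). The day 8 call (0.23 ± 0.07) was lost with factors from protein_coding rows (0.13, adjusted p = 0.13).

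SRSF3 (chr6:36594353-36605600, plus strand), the smallest SR protein and an adaptor for mRNA export, had 68.3, 76.02, 63.7, 87.3 and 80.97 CPM on day 0 and 134, 152, 158, 178 and 176 CPM on day 1. All day 1 libraries were above all of day 0 (1.08 ± 0.11, adjusted p = 1.1e-10). By day 6 it had 45.7, 42.4, 49.01, 58.2 and 70.96 CPM, and 4 of these 5 libraries were under every day 0 library (-0.5 ± 0.11, adjusted p = 0.00127). On day 10 it was not called (74.8 ± 1.14 CPM against 75.2 ± 9.47, SD, n = 5 each, -0.0071 ± 0.11). SRSF7 (chr2:38743599-38751494, minus strand), which like SRSF3 serves mRNA export and carries a zinc knuckle, took the same course. Its values were 37.4, 38.3, 30.9, 44.02 and 45.8 CPM on day 0 and 73.7, 85.1, 88.2, 99.1 and 100.1 CPM on day 1, with no overlap and the largest day 1 rise of the 10 genes (1.19 ± 0.11, adjusted p = 6.6e-12). On day 6 SRSF7 was lower (-0.34 ± 0.11, adjusted p = 0.0396), and the fall lost its call when any 1 of 8 libraries (day 0 replicates 1, 2, 4 and 5 and day 6 replicates 1, 2, 3 and 5) was left out. The changes were then -0.24 to -0.33, at adjusted p-values of 0.0569 to 0.225.

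SRSF9 (chr12:120461672-120495946, minus strand), an SR protein with a short arginine and serine domain, had 72.3, 81.9, 73.7, 82.1 and 89.4 CPM on day 0 and 139, 148, 157, 165 and 154 CPM on day 1. These groups did not overlap (0.93 ± 0.08, adjusted p = 3.5e-12), and the rise was still called on day 4 (0.40 ± 0.08) but not from day 6 on (-0.03 ± 0.08 on day 6 and 0.11 ± 0.08 on day 10).

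Smaller rises were seen for SRSF2, SRSF4 and SRSF10. SRSF2 (chr17:76734115-76737333, minus strand), a nuclear SR protein that is often mutated in myeloid neoplasms, rose from 182, 218, 199, 189 and 210.2 CPM on day 0 to 324, 334, 312, 351 and 325 CPM on day 2 (0.72 ± 0.08, adjusted p = 1.2e-09). Its day 1 change (0.40 ± 0.08) was only 0.10 above the median of abundant rows and was not called with factors from protein_coding rows (0.19, adjusted p = 0.066). SRSF4 (chr1:29147743-29181900, minus strand), which has one of the longest arginine and serine domains of the family, was the only one of the 10 genes with a protein_coding rise called on all 6 days. It had 60.1, 56.2, 58.4, 60.7 and 68.2 CPM on day 0, 113, 102, 92.1, 90.4 and 98.5 CPM on day 2 (0.71 ± 0.07) and 72.4, 82.8, 80.4, 85.8 and 84.7 CPM on day 10 (0.42 ± 0.07, adjusted p = 5.7e-05). Every library of days 1 to 10 was above every day 0 library. SRSF10 (chr1:23964347-23980927, minus strand), which turns into a splicing repressor when it is dephosphorylated, for example on heat shock, rose by 0.58 ± 0.07 on day 1 and 0.63 ± 0.07 on day 2 (adjusted p = 7.6e-10) and was at 0.32 ± 0.07 on day 10.

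SRSF5 and SRSF6 fell on day 1 and were still lower on day 10. SRSF5 (chr14:69726900-69772005, plus strand), first described as a gene induced in regenerating liver, had protein_coding values of 178, 171, 173, 208 and 215 CPM on day 0 and 58.4, 65.7, 75.1, 86.4 and 76.6 CPM on day 1. On day 10 it had 80.7, 96.4, 74.1, 73.3 and 84.7 CPM. All 30 libraries after the pulse lay under the lowest day 0 library. The change was -1.38 ± 0.14 on day 1 (adjusted p = 1.2e-10) and stayed between -1.07 and -1.21 from day 2 to day 10. SRSF6 (chr20:43457893-43466046, plus strand), a regulator of alternative exons such as that of MAPT, had 187, 191, 207, 204 and 183 CPM on day 0 and 97.02, 106, 103, 100.5 and 98.6 CPM on day 1. It had 61.5, 65.7, 48.6, 65.2 and 63.9 CPM on day 4 and 63.9, 63.9, 65.4, 73.9 and 74.3 CPM on day 10. It fell further after day 1, from -0.95 ± 0.10 to -1.67 ± 0.10 on day 4 (adjusted p = 1.0e-16), and the step from day 2 to day 4 was itself called (-0.44 ± 0.10, adjusted p = 0.00198). On day 10 it was at -1.51 ± 0.10. SRSF11 (chr1:70205682-70253052, plus strand), an SR-related protein that binds the splicing factor U2AF, was the exception among the 10 genes, with 108, 94.3, 108, 108 and 109 CPM on day 0 and 94.2, 118, 116, 104 and 109 CPM on day 1. Its protein_coding changes lay between -0.06 and 0.10 on the 6 days and none was called (SE 0.06). With factors from protein_coding rows, which remove most of the median shift, SRSF11 was lower on day 1 (-0.17), day 2 (-0.25) and day 4 (-0.15), with adjusted p-values of 0.020, 6.9e-04 and 0.044.

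The share of each symbol's counts that fell on its non-coding rows moved in most of the genes. It is a share of counts and not of molecules, because transcripts differ in length and in how their reads are assigned. On day 1 the 5 libraries lay entirely below those of day 0 for 7 symbols (SRSF1, SRSF3, SRSF4, SRSF7, SRSF9, SRSF10 and SRSF11) and entirely above for SRSF6. Over 6053 symbols with at least 10 counts on average in both kinds of row, 18.5% lay below and 2.74% above. SRSF1 libraries held 19.02% to 26.95% on day 0 and 3.36% to 7.34% on day 1. For SRSF9 the ranges were 32.4% to 40.7% and 8.13% to 14.2%, and for SRSF7 55.3% to 70.6% and 33.7% to 47.5%. By day 6 these 3 symbols all overlapped day 0 again, SRSF1 and SRSF7 already on day 4. Their day 6 means were 26.3% ± 4.04, 37.2% ± 5.39 and 63.98% ± 3.52. On day 0 they were 22.7% ± 3.39, 35.7% ± 3.87 and 61.9% ± 5.54 (SD, n = 5). Their day 10 means were 17.9% ± 4.97, 32.5% ± 2.19 and 56.7% ± 2.68, in the same order. Of the 5 day 10 libraries, 4 for SRSF1, 1 for SRSF9 and 1 for SRSF7 were under every day 0 library. SRSF4 and SRSF10 stayed below day 0 on all 6 days, SRSF4 from 42.9% ± 5.38 to 17.03% ± 3.27 on day 1 and 23.4% ± 6.04 on day 10, and SRSF10 from 55.5% ± 0.842 to 31.7% ± 4.18 and 39.5% ± 2.54. SRSF5 went the other way, from 23.5% ± 2.39 on day 0 through 34.9% ± 7.72 on day 1 to 65.3% ± 8.24 on day 6 and 58.8% ± 5.43 on day 10. From day 2 on its 5 libraries lay above all of day 0 on every day. SRSF6 joined it except on day 6, when SRSF2 did. The share of all symbols that lay above was, in the order of the days from day 2 to day 10, 1.78%, 1.5%, 2.74%, 1.59% and 1.69%. On day 10 SRSF4 and SRSF10 were the 2 SR symbols that lay below (9.45% of all symbols).

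**Figure D2:**
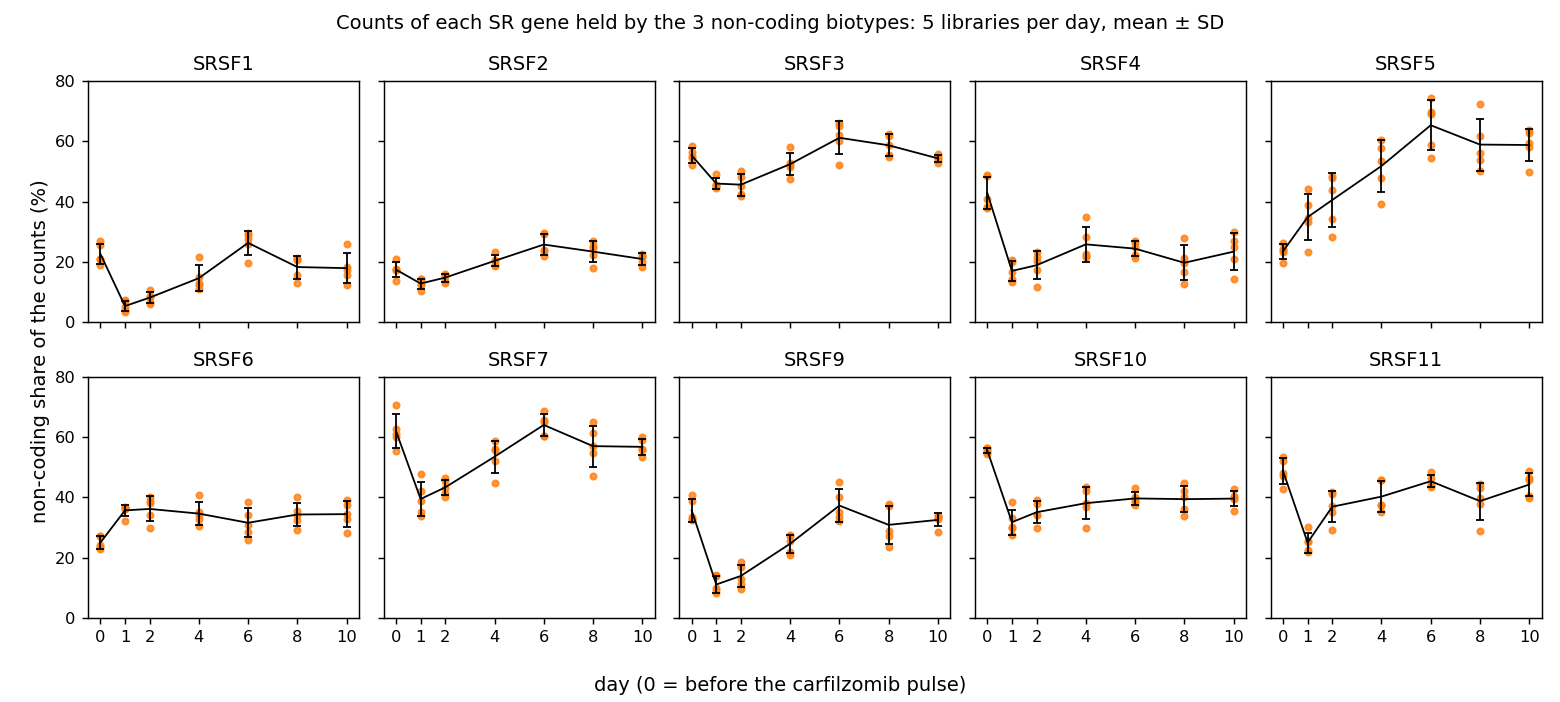
Share of the counts of each SR symbol that fell on its non-coding rows (percent, y axis, from 0) by day (x axis), with 1 point per library and the mean with 1 SD. SRSF5 climbs to a mean of 65.3% on day 6, and SRSF4 and SRSF10 drop on day 1 and stay low. SRSF1, SRSF7 and SRSF9 drop on day 1 and all overlap day 0 again by day 6. The mean of SRSF1 is down to 17.9% on day 10.

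The ratio of each non-coding row to the protein_coding row of its symbol was tested next, because it changes with the mix of transcripts and not with the amount of the gene. The 18 SR pairs with at least 10 counts on average in both rows were fitted with limma among 7892 such pairs of all genes. On day 1, 2 of the 18 SR pairs rose and 12 fell, with 30.3% of all pairs called (4.47% higher and 25.8% lower). On day 2 the SR counts were 2 and 11 (26.1% of all pairs), on day 4 3 and 7 (19%), on day 6 3 and 4 (13.7%), on day 8 3 and 6 (16.8%) and on day 10 2 and 5 (12.2%). These shares, from 14 of 18 on day 1 to 7 of 18 on day 10, stand above the shares of all pairs, a difference that was not tested. The 2 sets were not matched in depth. All pairs needed means of at least 10 counts, while the SR coding rows averaged 409.7 to 1872.1 counts, and rows with more counts are called more readily. The median change of the SR pairs was -1.06 on day 1 and 0.22 on day 6, against -0.45 and -0.16 over all pairs. In level, of the 18 non-coding rows with at least 10 counts on average, 3 were higher and 10 lower on day 1 (36.3% of the 8662 such rows in the table called), and 2 and 7 on day 2 (31.3%). There were 2 and 5 on day 4 (24.7%), 2 and 5 on day 6 (20.1%), 3 and 6 on day 8 (21.3%) and 2 and 3 on day 10 (16.7%). All 6 comparisons share the day 0 libraries. The rows of a symbol are not independent, because reads that fit transcripts of several biotypes are divided among them by an estimate.

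**Figure D3:**
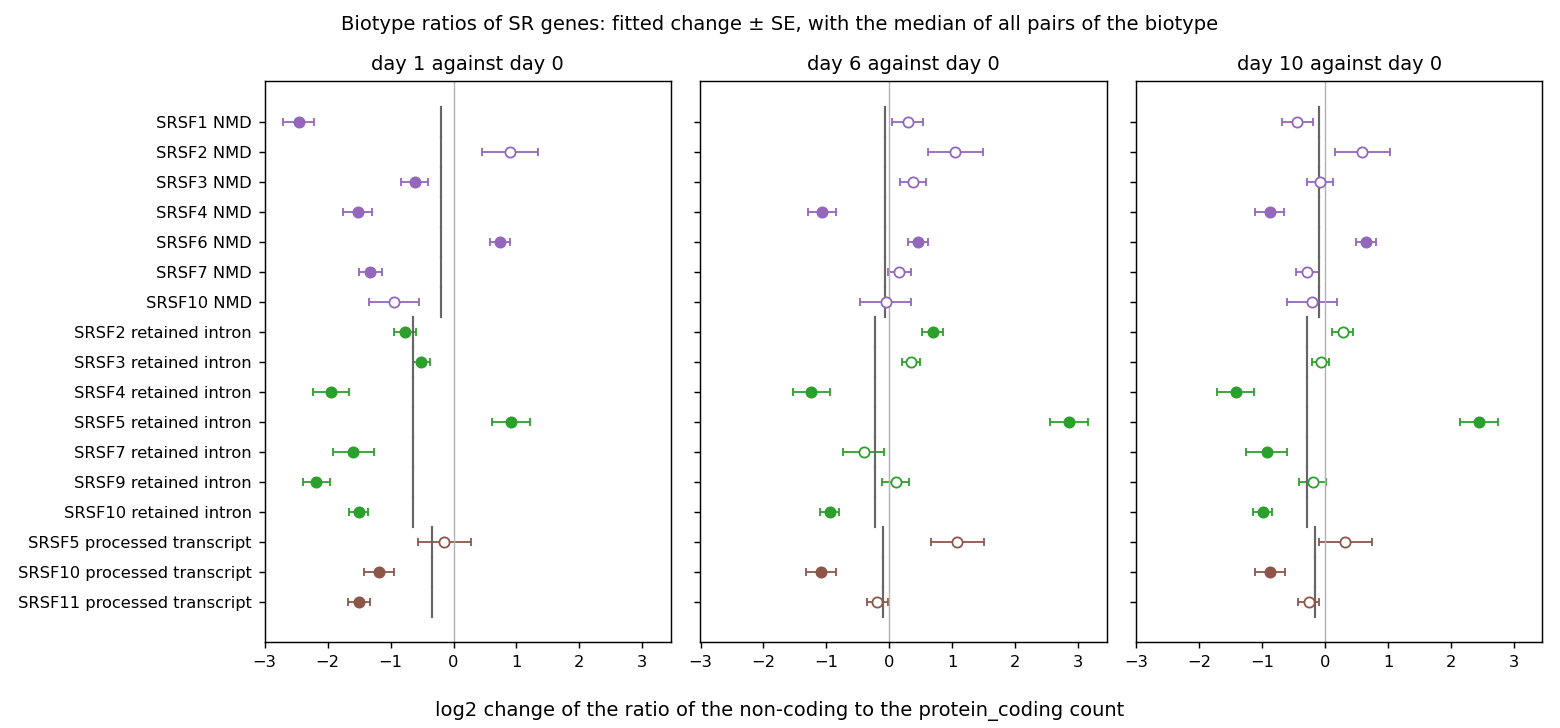
Change of the log2 ratio of a non-coding row to the protein_coding row of its symbol against day 0 (x axis, with bars of 1 SE) for 17 SR pairs (y axis) on days 1, 6 and 10. Grey lines mark the median over all pairs of the same biotype, and SRSF5 nonsense_mediated_decay, whose SE was above 2, is left out. SRSF5 retained_intron lies farthest to the right, while SRSF1 nonsense_mediated_decay, SRSF9 retained_intron and SRSF4 retained_intron lie farthest to the left on day 1.

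Among the NMD rows, those of SRSF1, SRSF3, SRSF4 and SRSF7 fell against their coding rows on day 1 and that of SRSF6 rose. SRSF1 NMD counts were 0.349, 0.266, 0.312, 0.229 and 0.252 for each protein_coding count in the 5 libraries of day 0 and 0.0785, 0.0393, 0.03496, 0.0452 and 0.0674 on day 1. No day 1 library reached the lowest of day 0, and the log2 change of the ratio was -2.46 ± 0.25 (SE, adjusted p = 4.6e-09), against a median of -0.20 over 2112 NMD pairs. Both rows contributed, since the NMD row itself fell from 41.5 ± 5.002 to 15.6 ± 4.99 CPM (-1.40 ± 0.21) while the coding row rose. The ratio was still lower on day 4 (-0.82 ± 0.25), a call lost when either of 2 libraries (day 0 replicate 1 and day 4 replicate 4) was left out. The refits gave changes of -0.70 to -0.74, at adjusted p-values of 0.0512 to 0.0587. On day 6 it was not called (0.29 ± 0.25).

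SRSF7 NMD ratios were 1.41, 1.54, 2.22, 1.41 and 1.16 on day 0. On day 1 they were 0.856, 0.689, 0.598, 0.455 and 0.507 (-1.32 ± 0.18, adjusted p = 1.4e-06). Here the level of the NMD row was not called (59.1 ± 6.66 CPM on day 0 and 54.02 ± 6.98 on day 1, -0.13 ± 0.10, adjusted p = 0.446) under a coding row that rose more than 2-fold. The SRSF3 ratio changed by -0.62 ± 0.21 on day 1 and -0.69 ± 0.21 on day 2 (adjusted p = 0.0116), and its NMD row rose in level (28.7 ± 2.01 to 39.8 ± 5.02 CPM, 0.48 ± 0.14, adjusted p = 0.0112). The day 1 call on the SRSF3 ratio was lost when either of 2 libraries (day 0 replicate 3 and day 1 replicate 3) was left out. Those changes ran from -0.55 to -0.57, at adjusted p-values of 0.0544 to 0.0598. None of the NMD ratios of SRSF1, SRSF3 and SRSF7 was called on day 6, 8 or 10.

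SRSF4 NMD counts were low, at 6.75, 5.51, 6.33, 7.47 and 6.76 CPM on day 0 and 2.66, 4.14, 3.34, 3.37 and 2.09 CPM on day 1. Their ratio to the coding row was lower on all 6 days, from -1.52 ± 0.23 on day 1 (adjusted p = 6.4e-06) to -0.88 ± 0.23 on day 10 (adjusted p = 0.0107). The day 4 call (-0.68 ± 0.23) was lost when any 1 of 6 libraries (day 0 replicates 1, 3 and 4 and day 4 replicates 1, 3 and 5) was left out. Without one of them the change was -0.52 to -0.68, at adjusted p-values of 0.0535 to 0.138. SRSF6 was the 1 symbol whose NMD ratio rose on all 6 days. Its ratios were 0.295, 0.374, 0.3205, 0.305 and 0.372 on day 0, 0.568, 0.477, 0.584, 0.574 and 0.574 on day 1 and 0.522, 0.603, 0.641, 0.394 and 0.489 on day 10. These were changes of 0.74 ± 0.16 (adjusted p = 4.9e-04) and 0.65 ± 0.16 (adjusted p = 0.00505). The level of the SRSF6 NMD row went from 64.7 ± 6.25 CPM on day 0 to 55.9 ± 3.59 on day 1 (-0.21 ± 0.11, adjusted p = 0.191) and 35.8 ± 4.87 on day 10 (-0.85 ± 0.11, adjusted p = 1.8e-07). The coding row fell more (-1.51). The smallest SRSF6 change, on day 6 (0.46 ± 0.16), lost its call when any 1 of 6 libraries (day 0 replicates 1, 3 and 4 and day 6 replicates 1, 4 and 5) was left out. The changes were then 0.35 to 0.47, at adjusted p-values of 0.0663 to 0.156.

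SRSF2 and SRSF10 had thin NMD rows. SRSF2 NMD values were 2.39, 7.34, 3.23, 2.33 and 7.06 CPM on day 0 and 13.3, 9.89, 8.405, 18.05 and 10.7 CPM on day 4. The ratio rose on day 4 (1.37 ± 0.44, adjusted p = 0.0258) and day 8 (1.29 ± 0.44, adjusted p = 0.0406). The day 4 call was lost when any 1 of 5 libraries (day 0 replicates 1, 3 and 4 and day 4 replicates 1 and 4) was left out. The refits gave changes of 1.21 to 1.30, at adjusted p-values of 0.0604 to 0.0713. The day 8 call was lost when any 1 of 6 libraries (day 0 replicates 1, 3 and 4 and day 8 replicates 2, 3 and 5) was left out. Those changes ran from 1.10 to 1.30, at adjusted p-values of 0.0640 to 0.120. SRSF10 NMD values stayed between 0.796 and 5.26 CPM over the 35 libraries, and no change of its ratio was called.

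In the retained_intron rows, 6 of the 7 tested ratios fell on day 1 and 1 rose. The fall was shared with the table as a whole, where the median over 3668 retained_intron pairs was -0.64 on day 1, -0.23 on day 6 and -0.29 on day 10. SRSF9 retained_intron counts per protein_coding count were 0.687, 0.477, 0.637, 0.504 and 0.479 on day 0 and 0.163, 0.166, 0.1103, 0.0889 and 0.101 on day 1, without overlap (-2.18 ± 0.21, adjusted p = 1.9e-09). The SRSF9 row itself went from 49.7, 39.05, 46.9, 41.4 and 42.8 CPM to 22.5, 24.4, 17.3, 14.6 and 15.6 CPM (-1.22 ± 0.14). On day 6 neither the level (46.6 ± 8.54 CPM) nor the ratio (0.10 ± 0.21, adjusted p = 0.823) was called. SRSF3 (-0.51 ± 0.14) and SRSF2 (-0.77 ± 0.17) also fell on day 1, by amounts near the median of all pairs, and the SRSF3 row rose in level (64.2 ± 7.68 to 95.4 ± 7.45 CPM, 0.57 ± 0.09). SRSF2 rose above day 0 on day 6 (0.69 ± 0.17, adjusted p = 0.00476).

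SRSF4 and SRSF10 lost retained_intron counts for the whole course. SRSF10 had 83.9, 83.2, 97.97, 72.6 and 86.5 CPM on day 0, 54.8, 42.3, 42.6, 42.1 and 41.1 CPM on day 1 and 55.9, 44.5, 54.2, 52.9 and 59.1 CPM on day 10. The lowest day 0 library was above every library of both later days. The ratio to the coding row fell by 1.51 ± 0.15 on day 1 (adjusted p = 3.1e-09) and was -0.99 ± 0.15 on day 10 (adjusted p = 4.1e-05). SRSF4 had 49.8, 33.3, 49.2, 30.2 and 34.9 CPM on day 0, 16.9, 14.6, 11.1, 13.3 and 11.97 CPM on day 1 and 25.5, 10.5, 21.2, 26.1 and 18.2 CPM on day 10. Its ratio was -1.95 ± 0.29 on day 1 (adjusted p = 5.1e-06) and -1.42 ± 0.29 on day 10 (adjusted p = 0.00139). Both ratios were called lower on all 6 days. SRSF7 retained_intron counts were low, between 2.49 and 4.91 CPM in the daily means, and their ratio fell on days 1 (-1.59 ± 0.32), 2 (-1.24 ± 0.32), 8 (-1.05 ± 0.32) and 10 (-0.93 ± 0.32). The SRSF7 day 8 call was lost when any 1 of 3 libraries (day 0 replicates 1 and 3 and day 8 replicate 5) was left out. Without one of them the change was -0.71 to -0.97, at adjusted p-values of 0.0501 to 0.0973. The day 10 call was lost when any 1 of 6 libraries (day 0 replicates 1, 2 and 3 and day 10 replicates 2, 3 and 5) was left out. The changes were then -0.81 to -0.94, at adjusted p-values of 0.0747 to 0.135.

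SRSF5 was the exception. Its retained_intron row had 40.8, 48.4, 43.9, 49.9 and 39.2 CPM on day 0 and 40.3, 36.2, 33.5, 20.4 and 32.5 CPM on day 1. It had 76.5, 71.4, 80.1, 96.9 and 98.2 CPM on day 4, 162, 153, 129, 151 and 106 CPM on day 6 and 103, 85.3, 116, 109.8 and 114 CPM on day 10. From day 4 on every library was above every day 0 library. The row sums all transcripts of its biotype, so its counts cannot be assigned to the introns printed above. In level the row was lower on day 1 (-0.44 ± 0.16, adjusted p = 0.0378). It was higher by 0.93 ± 0.15 on day 4, 1.66 ± 0.15 on day 6 (adjusted p = 4.2e-11) and 1.25 ± 0.15 on day 10 (adjusted p = 4.6e-08). The day 1 call was lost when any 1 of 6 libraries (day 0 replicates 2, 3 and 4 and day 1 replicates 3, 4 and 5) was left out. The refits gave changes of -0.31 to -0.44, at adjusted p-values of 0.0630 to 0.182. Each step up to day 6 was called, at 0.73 ± 0.16 from day 1 to 2, 0.64 ± 0.15 from day 2 to 4 and 0.73 ± 0.15 from day 4 to 6. No step of the coding row was called, with changes of 0.30 ± 0.14, 0.01 ± 0.14 and -0.13 ± 0.14.

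Set against the coding row, SRSF5 retained_intron counts were 0.229, 0.283, 0.255, 0.2402 and 0.183 per protein_coding count on day 0 and 2.68, 2.09, 1.22, 2.07 and 1.05 on day 6. Every ratio of day 6 was above 1, and none of day 0 reached 0.3. The change was 0.91 ± 0.30 on day 1 (adjusted p = 0.0185), 1.34 ± 0.30 on day 2, 2.00 ± 0.30 on day 4, 2.86 ± 0.30 on day 6 (adjusted p = 6.6e-08) and 2.45 ± 0.30 on day 10 (adjusted p = 1.6e-06). The day 1 call was lost without day 1 replicate 1 (0.75, adjusted p = 0.0632). On day 6 this change stood at percentile 99.8 of the 3668 retained_intron pairs, and on day 1 at percentile 95.8. The other non-coding rows of SRSF5 were thinner. Processed_transcript counts went from 13.3 ± 2.48 CPM on day 0 to 4.84 ± 2.17 on day 1 (-1.46 ± 0.36, adjusted p = 0.00177) and 13.1 ± 5.47 on day 8. Their ratio to the coding row lay above every day 0 library in all 5 libraries of day 6 and of day 8, but these changes missed the threshold (1.08 ± 0.42, adjusted p = 0.0876, and 1.05 ± 0.42, adjusted p = 0.0871). SRSF5 NMD counts summed to 2 on day 0. The sums were 144, 166 and 140 in the libraries of days 6, 8 and 10. They were at 0 in 2 to 4 libraries of every day, with up to 11.02 CPM in others, and no change of their level or ratio was called.

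**Figure D4:**
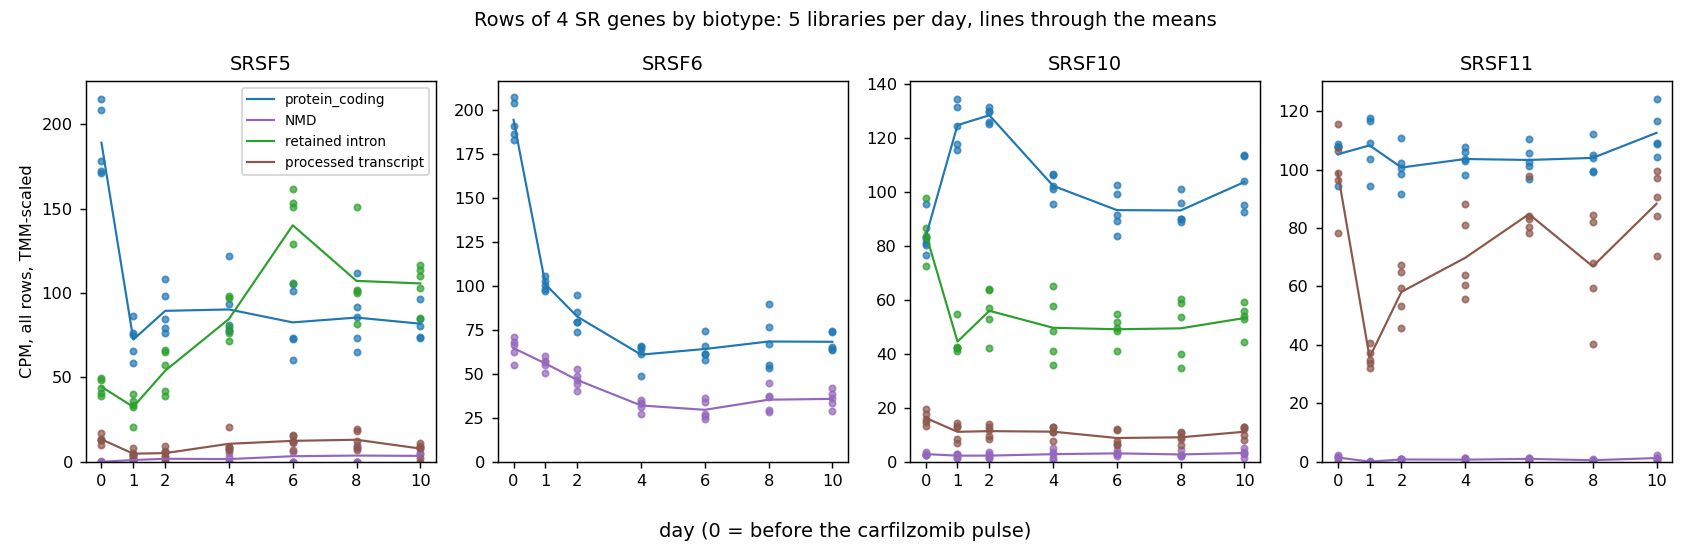
CPM (y axis) by day (x axis) for the biotype rows of SRSF5, SRSF6, SRSF10 and SRSF11, with 1 point per library and lines through the daily means. SRSF5 retained_intron passes SRSF5 protein_coding on day 6 (means of 140.1 and 82.6 CPM), and SRSF6 protein_coding falls from a mean of 195 CPM on day 0 to 60.98 on day 4.

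Processed_transcript rows were tested for SRSF5, SRSF10 and SRSF11. SRSF11 was the gene in which no change of the coding row was called with factors from all rows. Its processed_transcript row had 98.8, 106, 116, 78.2 and 96.4 CPM on day 0, 40.5, 33.97, 31.99, 34.9 and 37.2 CPM on day 1 and 90.5, 70.4, 97.1, 84.1 and 99.4 CPM on day 10. The day 1 libraries were all below day 0 (-1.47 ± 0.14, adjusted p = 3.0e-11), and the step from day 1 to day 2 was called upward (0.70 ± 0.14, adjusted p = 2.9e-04). The ratio to the coding row fell by 1.5 ± 0.17 on day 1 (adjusted p = 5.2e-08) and was -0.26 ± 0.17 on day 10, which was not called (adjusted p = 0.376). Its calls on day 4 (-0.49 ± 0.17) and day 8 (-0.59 ± 0.17) hung on few libraries. The day 4 call was lost when any 1 of 7 libraries (day 0 replicates 1, 2, 3 and 5 and day 4 replicates 1, 3 and 4) was left out. Those changes ran from -0.42 to -0.51, at adjusted p-values of 0.0521 to 0.122. The day 8 call was lost when either of 2 libraries (day 0 replicate 2 and day 8 replicate 5) was left out. Without one of them the change was -0.43 to -0.52, at adjusted p-values of 0.0513 to 0.0815. SRSF10 processed_transcript fell against its coding row on all 6 days, from -1.18 ± 0.24 on day 1 to -0.87 ± 0.24 on day 10, the last lost without day 10 replicate 4 (-0.73, adjusted p = 0.0573).

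The 4 rows under 10 counts on average held little. SRSF1 retained_intron had 0 to 3.49 CPM, SRSF1 processed_transcript 0 to 2.78 CPM and SRSF9 NMD 0 to 0.885 CPM over the 35 libraries. SRSF11 NMD had 58 counts in the 5 libraries of day 0 and 2 in those of day 1, with 4 of these at 0.

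The biotype rows of each symbol were also summed. The sum sets aside how reads were divided among the transcripts of a symbol. TMM factors were fitted anew on the sums, so totals and rows are not on the same CPM scale. Over 16168 symbols, 71.3% were called on day 1, 49.5% on day 6 and 45.8% on day 10. SRSF4, whose coding row rose on all 6 days, was lower in total on day 1 (112 ± 10.8 to 98.4 ± 4.43 CPM, -0.19 ± 0.06, adjusted p = 0.00737) and not called afterwards (-0.07 ± 0.06 on day 10). SRSF10 was not called in total on day 1 (-0.11 ± 0.08, adjusted p = 0.195) and was lower on day 6 (-0.33 ± 0.08, adjusted p = 3.0e-04). SRSF11 was lower on day 1 (216 ± 15.7 to 143 ± 5.48 CPM, -0.59 ± 0.07, adjusted p = 3.6e-09). SRSF5 fell in total on day 1 (258 ± 22.2 to 110.4 ± 3.69 CPM, -1.23 ± 0.07) and was lower on days 2 (-0.81 ± 0.07), 4 (-0.47 ± 0.07), 8 (-0.31 ± 0.07) and 10 (-0.37 ± 0.07, adjusted p = 9.1e-06). Day 6 was the 1 day without a call on this total (241 ± 13.8 CPM, -0.10 ± 0.06, adjusted p = 0.197), with the coding row at -1.19. SRSF6 stayed low in total (-0.80 ± 0.08 on day 1 and -1.38 ± 0.08 on day 10, adjusted p = 1.4e-17), as in its coding row. SRSF1 (0.65 ± 0.06), SRSF2 (0.25 ± 0.07), SRSF3 (0.74 ± 0.06), SRSF7 (0.44 ± 0.06) and SRSF9 (0.39 ± 0.05) rose in total on day 1, each by less than in the coding row alone.

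Between consecutive days the SR rows moved up to day 6. From day 1 to 2, 2 coding rows rose (SRSF2 and SRSF4) and SRSF6 fell, with 52.5% of abundant protein_coding rows called. From day 2 to 4, 8 of the 10 fell and none rose (43.3% of abundant rows), the exceptions being SRSF5 and SRSF11. From day 4 to 6, SRSF1, SRSF3, SRSF7 and SRSF9 fell and none rose (12.9%). The called ratio changes were all rises. There was 1 from day 1 to 2 (SRSF11 processed_transcript, 0.79 ± 0.17, with 2.34% of all pairs called) and 2 from day 2 to 4 (SRSF9 retained_intron, 1.05 ± 0.21, and SRSF3 NMD, 0.80 ± 0.21, 1.37% of all pairs). There were 2 from day 4 to 6 (SRSF1 NMD, 1.11 ± 0.25, and SRSF3 retained_intron, 0.65 ± 0.14, 0.203% of all pairs). Of these, SRSF3 NMD was lost when any 1 of 9 libraries (day 2 replicates 1, 2, 3, 4 and 5 and day 4 replicates 2, 3, 4 and 5) was left out. The changes were then 0.68 to 0.84, at adjusted p-values of 0.0527 to 0.141. SRSF1 NMD was lost when any 1 of 8 libraries (day 4 replicates 1, 2, 3 and 4 and day 6 replicates 1, 2, 3 and 4) was left out. The refits gave changes of 0.99 to 1.13, at adjusted p-values of 0.0921 to 0.174. SRSF3 retained_intron was lost when any 1 of 8 libraries (day 4 replicates 1, 2, 3 and 4 and day 6 replicates 1, 2, 3 and 4) was left out. Those changes ran from 0.58 to 0.68, at adjusted p-values of 0.0524 to 0.177. The SRSF6 step from day 1 to 2 (-0.29 ± 0.10) was lost when any 1 of 9 libraries (day 1 replicates 1, 2, 3, 4 and 5 and day 2 replicates 1, 2, 3 and 4) was left out. Without one of them the change was -0.25 to -0.29, at adjusted p-values of 0.0634 to 0.123. No SR row or ratio was called by edgeR or limma from day 6 to 8 or from day 8 to 10. In these steps 1.56% and 8.71% of abundant coding rows, 0.335% and 0.924% of non-coding rows with at least 10 counts and 0.0634% and 0.076% of pairs were called in the whole table. At an unadjusted p under 0.05 there were 5 coding rows, 5 such non-coding rows and 4 ratios in the first of these steps and 2, 2 and 1 in the second, and DESeq2 called 0 and 1 coding rows.

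Genes that act on SR proteins or on their transcripts were read in the same fit. Of 12 kinases, phosphatases and import factors of SR proteins, 7 coding rows rose and 1 fell on day 1, and 7 rose and 1 fell on day 10 (25% of all protein_coding rows and 44% of abundant ones called then, and 46.9% and 74.6% on day 1). The medians were 0.46 and 0.47, beside 0.30 and 0.11 over abundant rows. PRPF4B, a kinase of spliceosomal proteins, rose most on day 1 (1.43 ± 0.38, adjusted p = 0.00329), and CLK1, which phosphorylates SR proteins in the nucleus, rose most on day 10 (from 13.4 to 43.7 CPM, 1.71 ± 0.26, adjusted p = 3.2e-06). DYRK1A, a kinase found in nuclear speckles, was the 1 that fell on day 1 (-0.30 ± 0.06) and on day 10 (-0.27 ± 0.06). Of 16 NMD factors, 13 rose and 1 fell on day 1 and 6 rose and 4 fell on day 10, with medians of 0.44 and 0.15. DHX34, an RNA helicase of the pathway, rose most on day 1 (1.21 ± 0.08, adjusted p = 5.0e-16). Of 24 other splicing regulators, 16 rose and 1 fell on day 1 and 13 rose and 2 fell on day 10, with medians of 0.65 and 0.36. TRA2B, an SR-like protein with a poison exon of its own, rose most on both days, from 23.1 to 81.00 CPM on day 1 (1.81 ± 0.13, adjusted p = 6.1e-15). SRSF8, an SR gene outside the 10, fell most on day 10 (-0.52 ± 0.08, adjusted p = 1.9e-06). The part of these factors in the SR ratios was not tested.

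Some of the SR genes share sequence with neighbours in GENCODE release 44. On the same strand, protein_coding genes known only by their Ensembl IDs overlap SRSF1 over 6328 bases and SRSF6 over 7993 bases, and the long non-coding RNA NRAV overlaps SRSF9. Overlaps of this kind cannot be told apart by strand. On the opposite strand lie coding genes at SRSF2 (MFSD11) and SRSF9 (DYNLL1 and GATC) and a long non-coding RNA at SRSF11. The library kit marks strand, but the sources used here do not say whether the assignment used it.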

How the data were processed

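RNA libraries (directional kit, paired reads of 75 bases) covered 35 samples, 5 at each of 7 times. The authors assigned reads to GENCODE release 28 transcripts (GRCh38.p12) with Kallisto 0.44.0, which was set to adjust for GC content. They adjusted for gene length with tximport and deposited whole-number estimated counts per symbol and biotype. Those estimates split shared reads among transcripts, so biotype levels rest on that model.

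Groups came from the time labels. Levels were fitted on the 65717 rows with a count by edgeR 4.0.16 (quasi-likelihood F-test, TMM, all days sharing 1 dispersion). A Benjamini-Hochberg adjusted p of at most 0.05 was a call. The SE of a level change is the absolute log2 change divided by the square root of its F statistic. Ratios were log2((row + 0.5)/(protein_coding + 0.5)) for pairs with means of at least 10 counts, fitted by limma 3.58.1 (trend) and adjusted over 7892 pairs. R 4.3.3 and DESeq2 1.42.0 served the alternatives, which changed normalization, filters, test and libraries used. An alternative that summed biotype rows per symbol (16168 symbols passing filterByExpr) was added after seeing the data. The members and gene lists were chosen with earlier results of these data known. All members are described, and of each pathway list the genes with the highest and the lowest change are named, except 1 that is not reported here. On simulated data for day 1 against day 0, edgeR recovered 91 of 100 rows changed 2-fold and 53 of 100 changed 1.5-fold and called 6 of 47710 unchanged rows, and limma recovered 97 of 100 pairs changed 3-fold and 50 of 100 changed 2-fold. The changed rows were drawn from rows above 10 CPM on day 0. The changed pairs were drawn from pairs with both means at or above 100 counts. Recovery among thinner rows and pairs was not measured. Library totals of 6519392 to 10962890 limit rows under 10 counts. No release 28 annotation was used here, and positions and sequences are from GENCODE release 44.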

Additional observations from a re-analysis of the deposited data

Results flagged for a closer look

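In 17 of 266 groups of 5 libraries 1 library stood apart from the other 4 by Dixon's criterion, which chance alone meets in about 1 of 20 groups. SRSF1 NMD had a highest library of 52.5 CPM on day 4 (others 24.3 to 30.6) and a lowest of 37.4 on day 6 (others 56.7 to 61.8). SRSF3 had 1 high library each for protein_coding on day 10 (76.8 CPM, others 74.0 to 74.7), NMD on day 2 (43.96, others 31.7 to 34.5) and retained_intron on day 10 (71.9, others 56.5 to 60.5). SRSF5 NMD was at 0 in the other 4 libraries of day 0 and at 0.258 CPM in 1, and SRSF5 processed_transcript had 20.7 CPM in 1 library of day 4 (others 7.30 to 9.02). SRSF6 protein_coding was low in 1 library of day 4 (48.6 CPM, others 61.5 to 65.7). SRSF7 on day 2 had a high NMD library (61.6 CPM, others 52.7 to 55.0) and a low retained_intron library (3.17 CPM, others 4.28 to 4.43). SRSF10 had high NMD libraries on day 0 (3.76 CPM, others 2.58 to 2.82) and day 8 (4.37, others 2.17 to 2.57) and a high retained_intron library on day 1 (54.8, others 41.1 to 42.6). SRSF11 protein_coding was low in 1 library of day 0 (94.3 CPM, others 108 to 109). For the non-coding share, SRSF3 had 1 high library on day 1 (49.3%, others 44.5% to 45.6%), SRSF6 1 low library on day 1 (32.3%, others 36.2% to 36.8%) and SRSF9 1 low library on day 10 (28.6%, others 33.0% to 33.8%).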

How the results depend on the processing

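Of 3507 values recomputed with other normalizations, filters, tests and denominators, 3364 kept direction and side of the threshold, 60 lost a call, 82 gained one and 1 changed sign. That one was SRSF11 protein_coding on day 1, at -0.17 with factors from protein_coding rows alone. The sums per symbol, given below, are not among the 3507 values. With them, 13 of 60 coding values against day 0 and 1 of 50 between consecutive days changed sign. Leaving out single libraries kept 4856 of 5060, lost 150 and gained 54. The cause of the changes below was not tested unless it lies in the alternative's own construction.

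Summing the biotype rows of a symbol adds the non-coding counts, and TMM factors were also fitted anew on the sums. The parts of the added counts and of the new factors were not separated. SRSF4 turned to -0.19 on day 1, -0.1 on days 4 and 6 and -0.07 on days 8 and 10. SRSF10 turned to -0.11, -0.01, -0.25, -0.33, -0.35 and -0.19 on days 1 to 10. SRSF11 turned to -0.59 on day 1, SRSF7 to -0.18 on day 4, and the step of SRSF5 from day 4 to 6 to 0.37. Among the 16168 symbols, the shares of sums called in either direction against day 0 were 71.3% on day 1 and 55.2% on day 4. They were 49.5% on day 6, 52.5% on day 8 and 45.8% on day 10. For the steps the shares were 43.6% from day 2 to 4, 20.4% from day 4 to 6 and 15.1% from day 8 to 10. No difference of the SR genes from these shares was tested. With the sums, 4 genes were lower on day 1, 1 higher and 5 lower on day 4, 0 higher on day 6, 0 higher and 6 lower on day 8, 1 higher on day 10, 1 higher from day 2 to 4, 1 higher and 1 lower from day 4 to 6, and 2 higher from day 8 to 10.

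For coding rows against day 0, the 2 higher on day 8 became 4 with filterByExpr and 1 with protein_coding factors. Without single libraries there were 1 to 2 higher on day 6 and 2 to 4 on day 8. For non-coding rows of at least 10 counts, the 2 higher on day 2 became 1 with RLE factors or DESeq2, 5 in fits of the 2 days alone and 1 to 2 without single libraries. The 2 higher on day 6 became 4 in fits of the 2 days alone, the 2 higher on day 10 became 1 with RLE factors, and the 3 lower on day 10 became 5 with filterByExpr or DESeq2. The 5 lower on day 4 were 3 to 5 without single libraries. Between consecutive days, the 1 coding row lower from day 1 to 2 became 0 without factors (0 to 1 without single libraries), 1 non-coding row was lower in that step in the fit of the 2 days alone, the 2 non-coding rows higher from day 4 to 6 became 1 without factors (1 to 3 without single libraries), and 1 coding row was higher from day 8 to 10 with filterByExpr, without factors, with protein_coding factors, with DESeq2 and with the replicate block (0 to 1 without single libraries).

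For ratios, the 2 higher on day 1 became 4 by exact permutation tests (smallest possible p 0.00794) and 1 to 2 without single libraries. The 7 lower on day 4 and 5 lower on day 10 became 4 and 2 with all rows of the symbol as denominator (4 to 8 on day 4 without single libraries), and the 3 higher on day 8 became 5 in edgeR with the coding count as offset. From day 1 to 2 the 1 higher became 0 with the 2 days alone or by permutation. From day 2 to 4 the 2 higher became 1 with a minimum of 3 counts and 0 with the 2 days alone (1 to 3 without single libraries). From day 4 to 6 the 2 higher became 1 with the replicate block or the edgeR offset and 0 with a minimum of 3 counts, with all rows as denominator, with the 2 days alone or by permutation (0 to 2 without single libraries).

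Among the lists, 1 kinase or import factor was lower on day 6 with filterByExpr, RLE factors or DESeq2 in place of 0 (0 to 1 without single libraries). Without single libraries, NMD factors lower were 0 to 1 on day 1, 2 to 4 on day 4 and 1 to 4 on days 8 and 10, and other splicing regulators lower 1 to 2 on days 2, 4 and 10. Without factors the latter were 3 on day 1, 1 on days 2 and 4 and 2 on day 8, where filterByExpr and DESeq2 gave 2 as well. The replicate block kept 495 of 506 values, with 3 calls lost and 8 gained. Libraries of the same replicate number did not deviate together (mean r -0.0239 to 0.0239 between days, with 27 of 105 correlating best with their own number), so the numbers name libraries only. DESeq2 gave no adjusted p in 18 tests of members. Depth limits SRSF1 retained_intron and processed_transcript, SRSF9 NMD and SRSF11 NMD.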

Other observations

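The pathway lists also held genes that fell. Among the NMD factors CASC3, a component of the exon junction complex, was lowest on day 1 (-0.18 ± 0.06, log2, SE, edgeR) and SMG8, a regulator of the SMG1 kinase, was lowest on day 10 (-0.44 ± 0.09). Among the other splicing regulators SRRM2, a scaffold of nuclear speckles, was lowest on day 1 (-0.55 ± 0.08). TRA2B was at 1.13 ± 0.13 on day 10, below its day 1 value.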
